A study of Schmidtea mediterranea with 28 samples.

Results

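The 199 transcripts described here peaked in the X2 cell fraction of wild type planarians. X2 is the fraction of dissociated *Schmidtea mediterranea* cells with the DNA content of non-dividing cells and low calcein staining, and it holds stem cells together with cells that have begun to differentiate. The members were chosen by their wild type levels. For each transcript with at least 5 cRPKM in the wild type X2 library, the level on the scale log2(cRPKM + 1) in X2 was set against that in X1 and against the mean of both Xins libraries. cRPKM is the read count per kilobase of mappable positions, scaled to the mapped reads of the library. Transcripts were ranked by the smaller of these differences, the first 200 were kept and those of the assembly components comp1999 and comp8035 were dropped. This left 199 of 22944 transcripts, with 9099 others past the minimum of 5 cRPKM. Only the wild type libraries chose the members, so what follows rests mainly on the RNAi libraries and the whole worms.

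All animals were of the asexual Berlin-1 strain, which was derived from 1 individual, so every group shares 1 clonal background. X1 cells have double DNA content and are mostly neoblasts, and Xins cells have single DNA content, high calcein staining and are differentiated. Sorted libraries came from *bruli* RNAi worms (1 X2, 2 X1, 2 Xins), *mbnl* RNAi worms (1 X2, 2 X1, 2 Xins), control worms injected with *GFP* dsRNA (1 X2, 2 X1, 2 Xins) and wild type worms (1 X2, 1 X1, 2 Xins). Whole worm libraries, 1 each, came from RNAi of *bruli*, the *celf* genes, the *esrp* genes, the *mbnl* genes, the *nova* genes, the *ptbp* genes, *rbfox1*, the other *rbfox* genes (labelled *rbfoxS*) and the *GFP* control. Each dsRNA was injected at 1 µg/µl on 3 days, also within mixes against several genes, which therefore held more dsRNA in total. Where appropriate, the *GFP* dsRNA was raised to the highest amount used. According to the paper, RNA was taken while the neoblast population was not yet reduced by *bruli* RNAi, for which it shows the proportions of sorted cells. Levels of neoblast marker transcripts were lower after *bruli* RNAi, as given below.

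Neoblasts are the only dividing somatic cells of planarians and replace all other cell types. When they leave the cell cycle their daughters switch on genes of a lineage, such as epidermis, gut, muscle or neurons, before they gain the size and staining of mature cells. A transcript that peaks between stem cells and differentiated cells can therefore belong to a transient stage of a lineage, but X2 also collects any small mature cell. *bruli* is a CELF-family RNA-binding protein that neoblasts need in order to persist, and muscleblind-like (MBNL) proteins are splicing regulators of differentiated cells.

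Counts summed to 15811388 to 34950244 per library in the sorted fractions and to 12772545 to 16363499 in whole worms. The 5 neoblast markers (2 *PIWIL1*-like, 2 *DDX4*-like transcripts and *bruli*) summed to 529 to 1901 cRPKM in X2, 1509 to 4525 in X1 and 127 to 264 in Xins, and the 7 markers of differentiated cells to 70.3 to 155 cRPKM in X2, 20.2 to 51.5 in X1 and 154 to 252 in Xins. X2 thus lay mostly between its neighbours for both sums. Its ranges touched those of X1 for neoblast markers and of Xins for the others, and no marker was at 0 in any library. The 7 were *celf-2*, *rbfox-2*, *rbfox-3*, 2 *ELAVL4*-like transcripts, *RBPMS* and *mbnl-1*, and not all followed the sum. *ELAVL4*-like comp10994_c0_seq1 had 13.15 and 22.8 cRPKM in the X1 controls and 7.17 and 14.8 in the Xins controls. *mbnl-1* had 55.7 cRPKM in X2 after *bruli* RNAi, above every Xins library (8.47 to 45.15). Markers of progeny were not matched to transcript identifiers here, so the content of progeny in X2 was not checked and that name rests on the gate. *bruli* stood at 28.9 cRPKM in X2 after *bruli* RNAi against 127 in the X2 control, and *mbnl-1* at 7.22 cRPKM after *mbnl* RNAi against 38.1. The neoblast sum after *bruli* RNAi was 1509 and 1811 cRPKM in X1, against 3680 and 4517 in the X1 controls. It was 529 against 1131 in X2 and 287.5 against 559 in whole worms. Each of the 5 markers was lower there, not only *bruli*. *PIWIL1*-like comp659_c0_seq1 had 77.1 cRPKM in whole worms after *bruli* RNAi against 190 in the control. The cause was not tested. The X2 RNAi libraries and the other 6 sorted RNAi libraries numbered 1 carry cRPKM scaled to totals that exceed their summed counts by a factor of 1.16 to 1.30, taking the whole worm control as 1.00, where the other 19 libraries also stand. Levels in cRPKM therefore read low in X2 RNAi libraries against X1 and Xins libraries numbered 2.

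By the rule the smaller difference ran from 3.59 for comp332_c0_seq1 to 1.22 for comp7777_c0_seq1. The last members inside, comp2030_c2_seq1, comp4071_c0_seq1 and comp7777_c0_seq1, had 1.23, 1.23 and 1.22, and the first outside, comp14058_c0_seq1, comp29535_c0_seq1 and comp10255_c0_seq1, all had 1.22. There is no gap at the threshold. Each member comes from a different assembly component, so no 2 members are isoforms of 1 assembled gene. Only comp22685_c0_seq1 has a name in the study's tables, as the planarian transcript closest to human *PRDM16*, listed among the RNA-binding proteins. The other 198 are given by identifier, with no function.

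The first member, comp332_c0_seq1, had 3484 cRPKM in X2 after *bruli* RNAi, 4028 after *mbnl* RNAi, 2227 in the X2 control and 1293 in wild type X2. In the X1 RNAi libraries it ran from 15.1 to 138 cRPKM (median 37.4), and in the Xins RNAi libraries from 8.71 to 495 (median 41.4). The X2 libraries all lay above the others, and the Xins value of 495 was that of control replicate 1, against 46.1 in control replicate 2. comp17406_c0_seq1, the second member, kept nearly the same level in all 4 X2 libraries, with 20.9 cRPKM after *bruli* RNAi, 21.8 after *mbnl* RNAi, 21.4 in the control and 22.4 in wild type. It reached at most 1.22 cRPKM in the X1 and 2.5 in the Xins RNAi libraries. Its whole worm levels lay between 2.06 and 3.18 cRPKM after the 8 knockdowns and at 2.54 in the control.

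Other leading members were less abundant or less steep. comp6912_c0_seq1 had 174 cRPKM in X2 after *bruli* RNAi, 239 after *mbnl* RNAi and 168 in the control, against 10.4 to 39.6 in the X1 and 2.36 to 31.7 in the Xins RNAi libraries. comp9905_c0_seq1 had 57.6, 48.4 and 48.0 cRPKM in X2 after *bruli*, *mbnl* and control RNAi, against 5.41 to 8.40 in X1 and 7.30 to 13.2 in Xins, a narrow spread in each fraction. comp17804_c0_seq1 stood at 40.5, 24.9 and 21.9 cRPKM in the same X2 libraries, with at most 7.76 in X1 and 4.75 in Xins. comp40742_c0_seq1 and comp18079_c0_seq1 were low in all X1 and Xins RNAi libraries. comp40742_c0_seq1 had 7.18, 6.25 and 8.60 cRPKM in X2 after *bruli*, *mbnl* and control RNAi, and no count at all in some X1 and Xins libraries. comp18079_c0_seq1 had 22.9, 12.9 and 14.97 cRPKM in these X2 libraries, with at most 0.79 in X1 and 2.01 in Xins. comp13347_c0_seq1 leaned the other way, being lower in Xins (0.36 to 2.69 cRPKM, median 0.54) than in X1 (1.28 to 3.26, median 2.28), with overlap, and stood at 12.9, 23.8 and 14.8 cRPKM in X2 after *bruli*, *mbnl* and control RNAi.

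The named member, comp22685_c0_seq1, is the 58th by the rule. In humans *PRDM16* is a zinc finger regulator of transcription that directs cell fate in several tissues. Here it had 3.46 cRPKM in X2 after *bruli* RNAi, 3.41 after *mbnl* RNAi, 2.88 in the control and 6.37 in wild type X2. X1 RNAi libraries held 0.09 to 0.40 cRPKM and Xins RNAi libraries 0.84 to 2.06. The X2 libraries did not overlap with either neighbour, and X1 lay below Xins throughout. Its mean was under the minimum of the test. Fitted without that minimum, it was higher in X2 than in X1 by 4.30 on the log2 scale (standard error 0.37) and than in Xins by 1.80 (0.33), with adjusted p of 9.15e-08 and 0.000261 (edgeR, Benjamini-Hochberg).

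**Figure D1:**
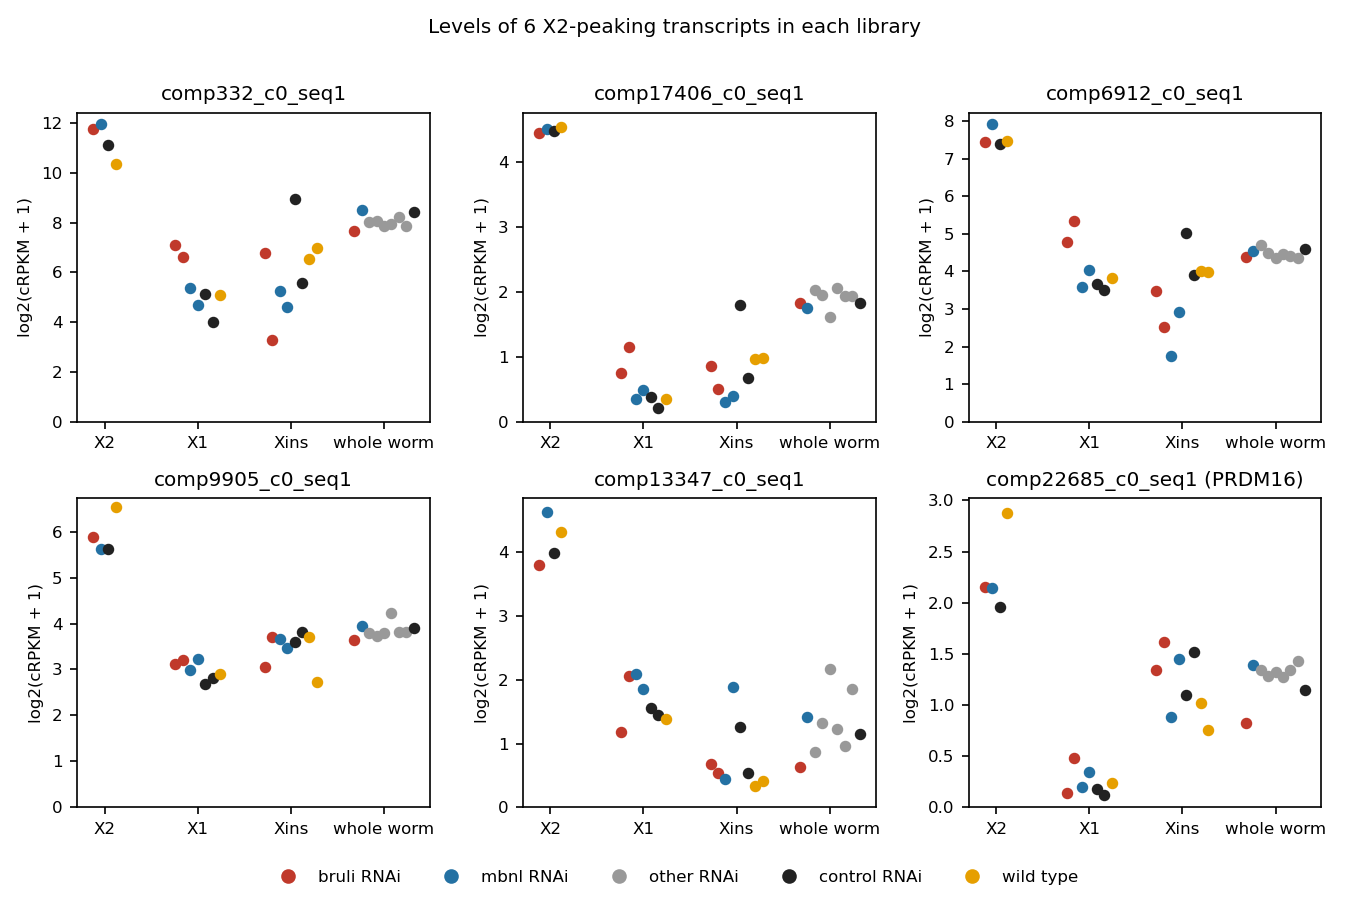
Level of 6 members in each library, as log2(cRPKM + 1), by fraction, with 1 point per library and the RNAi treatment in colour. The X2 libraries sit above all X1 and Xins libraries in each panel. The level in whole worms lies below all X2 libraries.

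A set of 6 members was very abundant in X2: comp332_c0_seq1, comp478_c0_seq1, comp363_c0_seq1, comp213_c0_seq1, comp61_c0_seq1 and comp69_c0_seq1 each passed 1000 cRPKM in the X2 control. The highest, comp69_c0_seq1, had 23267 cRPKM after *bruli* RNAi, 26042 after *mbnl* RNAi and 13529 in the X2 control, against 5266 in wild type X2. All 6 together took 3.14% to 5.25% of the counts in the X2 RNAi libraries and 1.25% in wild type X2. Their share was 0.0130% to 0.106% in X1 and 0.0384% to 0.874% in Xins. The top Xins value came from control replicate 1, in which comp61_c0_seq1 had 3297 cRPKM against 918 in replicate 2 and comp363_c0_seq1 1242 against 180. That library also held more of the neoblast marker comp659_c0_seq1 (*PIWIL1*-like), with 43.0 cRPKM against 10.5 in replicate 2. The other neoblast markers were close in these replicates. comp1258_c0_seq1 had 116 and 107 cRPKM, comp1985_c0_seq1 42.25 and 38.4, comp2082_c0_seq1 40.5 and 39.2, and *bruli* 22.1 and 23.5. The part of this difference between replicates in the results was not tested. In bulk RNA, fewer cells of a type and less RNA per cell cannot be told apart.

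**Figure D2:**
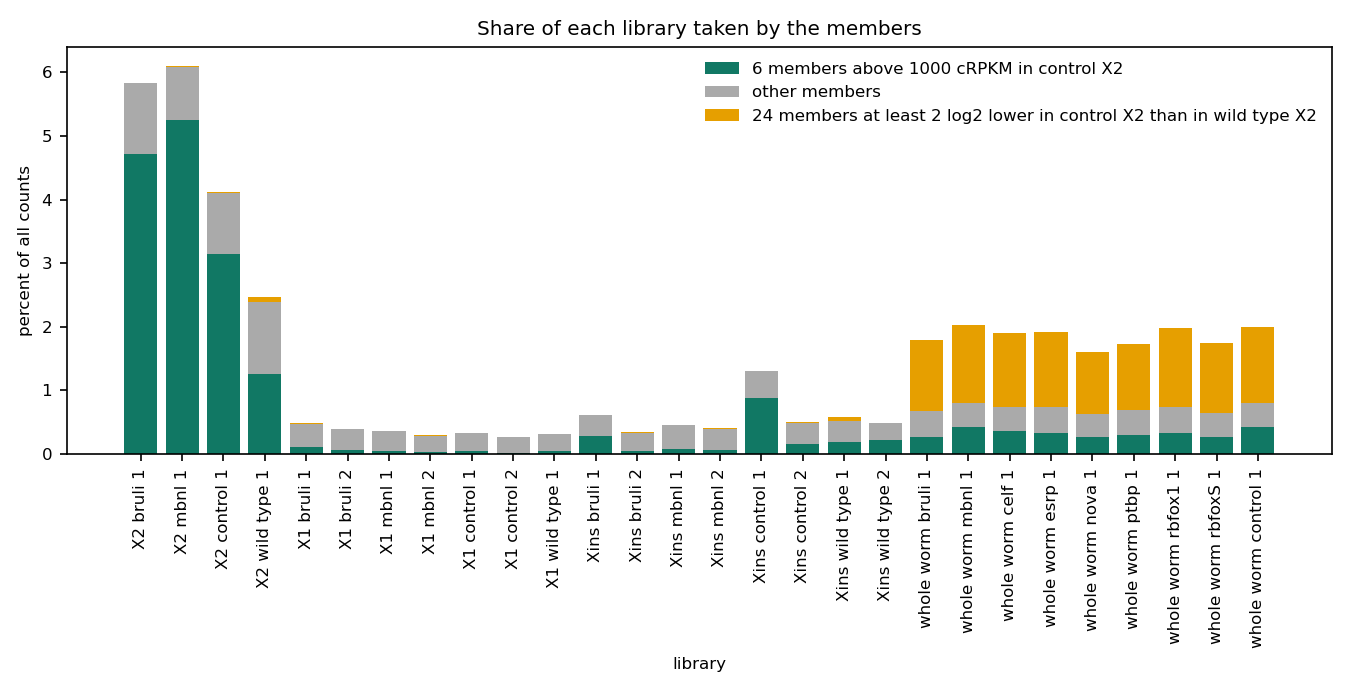
Percent of all counts taken by the 199 members in each of the 28 libraries, stacked as the 6 abundant members, the 24 that were far lower in the X2 control than in wild type X2, and the 169 others. The members took 2.46% to 6.10% of X2 libraries, 0.264% to 0.477% of X1, 0.341% to 1.31% of Xins and 1.60% to 2.03% of whole worms.

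In control libraries, which the rule did not use, the X2 peak recurred in most members. The X2 control lay above all 4 X1 and Xins control libraries for 139 of the 199 members (69.8%), and for 558 of the 9099 other transcripts (6.13%). Over all transcripts with at least 5 cRPKM in wild type X2 this share was 7.5%. In CPM, the count scaled to library size (an alternative added after the values were seen), the order held for 156 members, for 979 of the others (10.8%) and for 12.2% over both. All 3 X2 RNAi libraries lay above all 12 X1 and Xins RNAi libraries for 90 members (45.2%), against 156 of the others (1.71%) and 2.65% over both. In CPM this second order held for 106 members, against 371 of the others and 5.13% over both, and 87 of the 90 were among the 106. Higher ranks carried more of these recurrent members, 33 of the first 50 and 10 of the last 50.

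edgeR's quasi-likelihood test on the counts of the 15 sorted RNAi libraries, with fraction and RNAi treatment as terms, asked the same of each neighbour. Of the 199 members, 143 passed the minimum level of the fit and 56 did not. X2 differed from X1 for 113 of these 143, where 60.1% of all 12091 tested transcripts were called. It was higher for 108 and lower for 5 (31.5% and 28.5% of all). Against Xins, X2 differed for 117, where 66.3% of all were called, and was higher for 112 and lower for 5 (31.0% and 35.3%). In both comparisons 94 members were higher, against 4.08% of all. A member that is high only in X2 passes the minimum more easily when it is abundant there, so the fit was repeated without it: 143 of all 199 members were then higher in X2 than in X1 and 9 lower (24.8% and 17.4% of 22859 transcripts), 149 were higher than in Xins and 10 lower (22.7% and 25.8%), and 130 were higher than both (3.49%). Nothing says that replicates were made from different worms, so these p-values measure the spread between libraries, which may be technical.

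Since X2 RNAi libraries all carry replicate number 1, the 9 libraries with that number were also fitted alone. In them 111 of 144 members were higher in X2 than in X1 (33.1% of all transcripts) and 119 higher than in Xins (34.8%). Higher than both neighbours were 99 of the 144, of which 86 were among the 94. Control libraries alone (1 X2, 2 X1, 2 Xins) gave 58 members higher than X1 (13.7% of all transcripts), 33 higher than Xins (9.24%) and 15 higher than both. Leaving out the *bruli*, *mbnl* or control X2 library left 72, 82 and 78 members higher than both. The share of all transcripts higher than both was not counted in the fits of this paragraph, so these counts describe the members only.

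**Figure D3:**
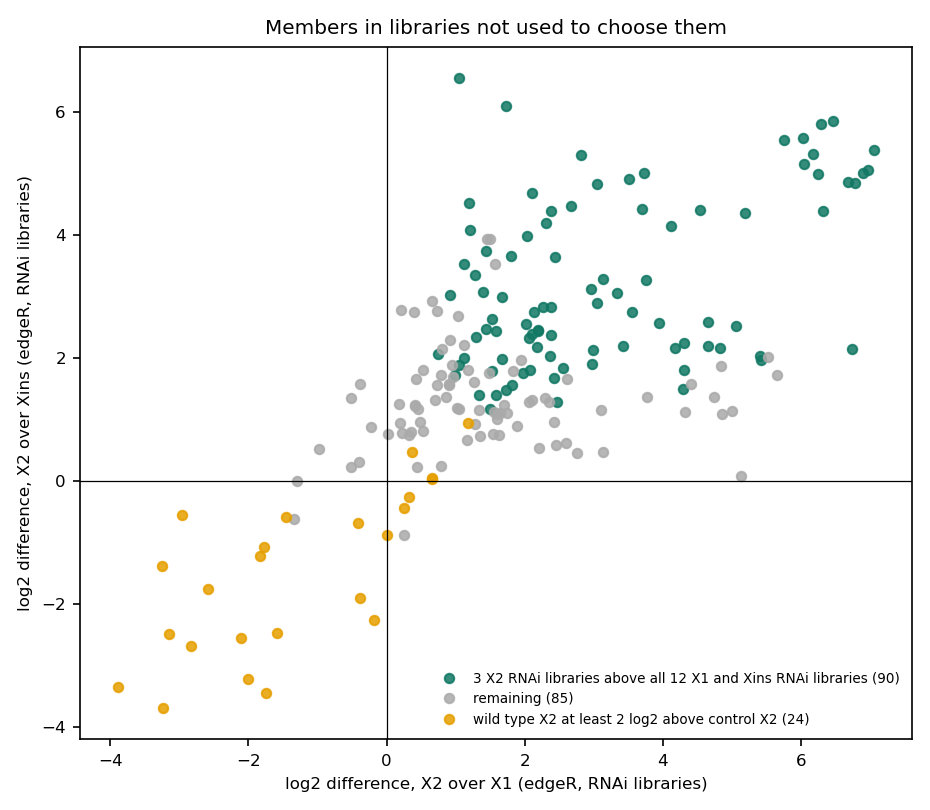
edgeR log2 differences of all 199 members in the 15 RNAi libraries, X2 over X1 on the horizontal and X2 over Xins on the vertical axis, fitted without a minimum level. The 90 recurrent members, defined by the order of these same libraries, fill the upper right, and the 24 members far lower in the X2 control than in wild type X2 lie mostly below 0 on both axes.

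Among the 143 members past the minimum level, the largest against X1 were comp363_c0_seq1, comp3549_c0_seq1, comp69_c0_seq1, comp61_c0_seq1 and comp213_c0_seq1, with log2 differences of 6.87, 6.83, 6.70, 6.61 and 6.52. comp3549_c0_seq1 had 361 cRPKM after *bruli* RNAi, 330 after *mbnl* RNAi and 304 in the control in X2, against 1.24 to 5.54 in the X1 RNAi libraries and 4.53 to 72.4 in the Xins RNAi libraries. Its log2 difference from X1 had a standard error of 0.78 and an adjusted p of 6.54e-06 (edgeR, Benjamini-Hochberg). Against Xins the largest of these 143 were comp11501_c0_seq1 at 6.34, comp5942_c0_seq1 at 5.90, comp478_c0_seq1 at 5.64, comp332_c0_seq1 at 5.60 and comp363_c0_seq1 at 5.17. Without the minimum, comp29211_c0_seq1 (6.74) passed comp213_c0_seq1 (6.68) against X1, and comp18079_c0_seq1 (5.59) and comp17406_c0_seq1 (5.54) passed comp363_c0_seq1 (5.38) against Xins. comp11501_c0_seq1 was at 28.4, 36.0 and 40.5 cRPKM in X2 after *bruli*, *mbnl* and control RNAi, against 0.19 to 1.86 in Xins. In X1 it still had 13.6 to 22.4 cRPKM, and X2 over X1 was 0.89 (standard error 0.40, adjusted p = 0.0704), which missed the threshold. comp5942_c0_seq1 was similar, with 171 to 216 cRPKM in the X2 RNAi libraries, 33.8 to 148 in X1 and 0.95 to 21.7 in Xins.

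Members split by which neighbour came closer in wild type. For 47 the wild type level was at least 1 higher on the log2 scale in Xins than in X1, for 15 at least 1 higher in X1, and 137 lay between. In the RNAi libraries, X1 was higher than Xins for 47 of the 143 tested members and lower for 43 (41.1% and 43.6% of all). By side and without a minimum level, X1 was called higher than Xins for 14 of the 15 X1-side members and lower for none. It was higher for none and lower for 36 of the 47 Xins-side members. Of all 22859 transcripts in that fit, 35.3% were higher in X1 than in Xins and 36.4% lower. Medians of the X1 over Xins difference were 2.36 on the X1-side and −1.89 on the Xins-side. X2 was higher than both neighbours for 12 of the 15 X1-side, 33 of the 47 Xins-side and 85 of the 137 other members, beside 3.49% of all. The Xins-side includes the 6 abundant members, and some with tight replicates. comp2520_c0_seq1 had 226, 340 and 268 cRPKM in X2 after *bruli*, *mbnl* and control RNAi, against 5.23 to 10.1 in X1 and 96.5 to 132 in Xins. comp8717_c0_seq1 had 67.3, 56.1 and 46.4 cRPKM in these X2 libraries, against 1.71 to 3.38 in X1 and 11.1 to 24.8 in Xins. These 2, picked for their small p after the values were seen, rose in a step from X1 to X2 and were intermediate in Xins.

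Of the 143 tested members, 49 were not higher than both neighbours. X2 was higher than X1 but not called against Xins for 14: comp9375_c0_seq1, comp8609_c0_seq1, comp6915_c0_seq1, comp61070_c0_seq1, comp8820_c0_seq1, comp7664_c0_seq1, comp17726_c0_seq1, comp17422_c0_seq1, comp1103_c0_seq1, comp5856_c0_seq1, comp13056_c0_seq1, comp14213_c0_seq1, comp4180_c0_seq1 and comp6910_c0_seq1. Their log2 differences from Xins ran from −0.13 to 1.41. Higher than Xins but not called against X1 were 18: comp5942_c0_seq1, comp27512_c0_seq1, comp25754_c0_seq1, comp13673_c0_seq1, comp17476_c0_seq1, comp29353_c0_seq1, comp11501_c0_seq1, comp8908_c0_seq1, comp7437_c0_seq1, comp15035_c0_seq1, comp15443_c0_seq1, comp7464_c0_seq1, comp7063_c0_seq1, comp2479_c0_seq1, comp7116_c0_seq2, comp9704_c0_seq1, comp4053_c0_seq1 and comp14839_c0_seq1, with log2 differences from X1 of −0.53 to 1.58. Neither difference was called for comp497_c0_seq1, comp208_c0_seq1, comp345_c0_seq1, comp23203_c0_seq1, comp51_c1_seq1, comp6490_c1_seq1, comp8824_c0_seq1, comp5127_c0_seq1, comp23524_c0_seq1 and comp6782_c0_seq1.

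The other 7 were lower in X2 than at least 1 neighbour. comp207_c0_seq1 had 2.33 cRPKM after *bruli* RNAi, 3.85 after *mbnl* RNAi and 1.72 in the control in X2, against 9.51 to 84.5 in X1 and 5.11 to 24.3 in Xins, so that no X2 RNAi library reached either neighbour. X2 fell below X1 by a log2 difference of −3.42 (standard error 0.61, adjusted p = 0.000322) and below Xins by −1.62 (0.56, adjusted p = 0.0202; edgeR, Benjamini-Hochberg). comp1057_c0_seq1 (−2.72 against X1, −1.99 against Xins) and comp1141_c0_seq1 (−1.72 and −2.71) were also below both. comp328_c0_seq1 (−3.11) and comp18260_c0_seq1 (−1.46) were below X1, and comp2803_c0_seq1 (−2.51) and comp16040_c0_seq1 (−1.11) below Xins.

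Of these 7, all but comp18260_c0_seq1 and comp16040_c0_seq1 belonged to a set far lower in the X2 control than in wild type X2. For short it is called the set low in the X2 control. A cut of 2 on the log2 scale between wild type X2 and the X2 control, chosen after the values were seen, held 24 members. The rule chose members for a high wild type X2 level and so favours this difference, which is given as a description. comp1057_c0_seq1 had 53.1 cRPKM in wild type X2, against 0.91, 0.96 and 0.69 in X2 after *bruli*, *mbnl* and control RNAi. It had 22.9 cRPKM in replicate 1 and 1.39 in replicate 2 of wild type Xins, and 360 in the whole worm control. comp735_c0_seq1 showed the same order, with 32.1 cRPKM in wild type X2, 0.12 to 0.45 in the X2 RNAi libraries, 24.7 and 0.07 in wild type Xins and 239 in the whole worm control. The most abundant, comp51_c1_seq1, had 246 cRPKM in wild type X2, 2.64, 27.4 and 3.03 after *bruli*, *mbnl* and control RNAi, 234 and 34.3 in wild type Xins and 4795 in the whole worm control.

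All 24 were higher in replicate 1 than in replicate 2 of wild type Xins, and for 19 the wild type X2 library and that Xins replicate were the 2 highest of the 19 sorted libraries. The median gap between both Xins replicates was 2.94 on the log2 scale, against 0.34 in the 175 other members. In whole worms 20 of the 24 exceeded wild type X2 by at least 2 on the log2 scale. The 4 that did not were comp18488_c0_seq1, comp24222_c0_seq1 and comp35980_c0_seq1, all under 1 cRPKM in the whole worm control, and comp4428_c0_seq1. The last was higher there, at 29.0 cRPKM against 8.14 in wild type X2. None of the 24 was higher in X2 than both neighbours in the RNAi libraries, with or without the minimum level, an outcome the cut itself favours because it takes members low in 1 of the 3 X2 RNAi libraries. What sets the wild type X2 library and wild type Xins replicate 1 apart for these transcripts was not tested.

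**Figure D4:**
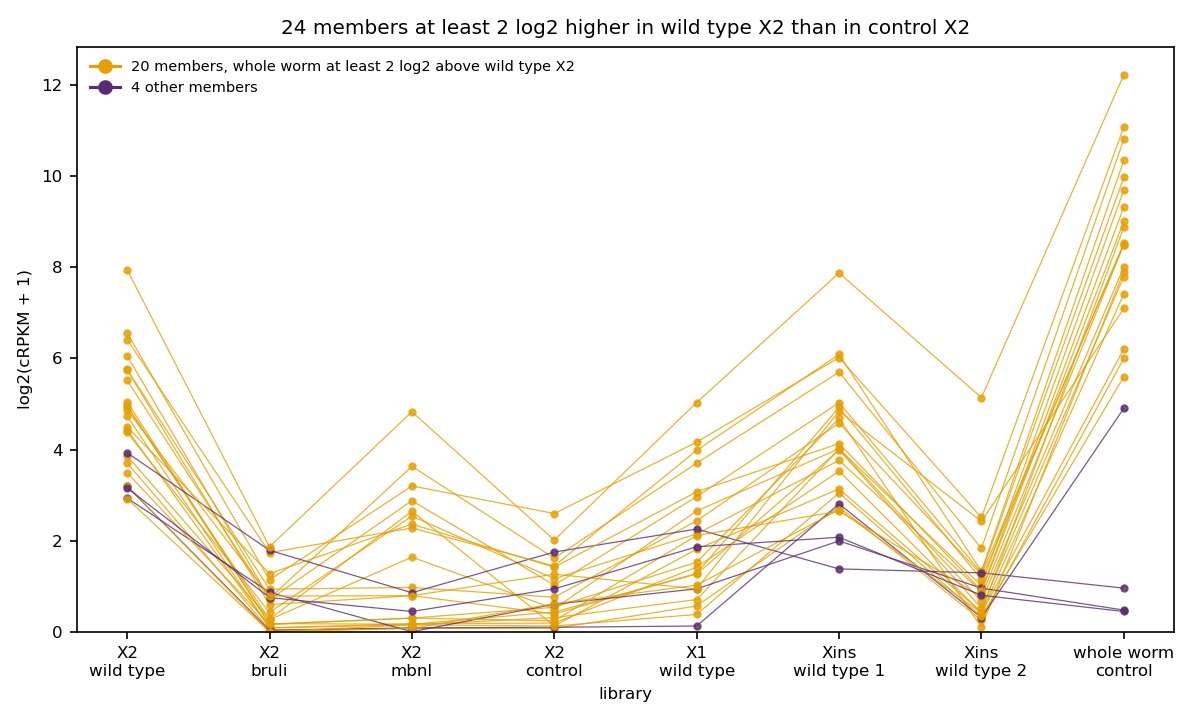
Level of the 24 members that were at least 2 log2 higher in wild type X2 than in the X2 control, as log2(cRPKM + 1), with 1 line per member. Levels are high in wild type X2, wild type Xins replicate 1 and the whole worm control, and low in the X2 RNAi libraries and wild type Xins replicate 2. The 4 members drawn in purple did not exceed wild type X2 by 2 log2 in the whole worm control. Of them, comp4428_c0_seq1 was still higher there, at 29.0 against 8.14 cRPKM.

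In the whole worm control, which the rule did not use, the 199 members had a median of 8.0 cRPKM and the 9099 others one of 18.96 cRPKM. All 9 whole worm libraries lay below all 3 X2 RNAi libraries for 132 of the 199 members (66.3%) and for 2287 of the others (25.1%). In CPM these counts were 153 (76.9%) and 4148 (45.6%), so the share of the others depends on the scale. In cRPKM this order held for 83 of the 90 recurrent members. Of the recurrent members outside it, 4 had all whole worm libraries above all sorted ones: comp1161_c1_seq1, comp626_c0_seq1, comp3133_c0_seq1 and comp10820_c0_seq1. comp626_c0_seq1 had 51.6, 75.3 and 45.4 cRPKM in X2 after *bruli*, *mbnl* and control RNAi, 1.85 to 6.2 in X1, 13.4 to 23.6 in Xins, and 484 to 571 in whole worms after the 8 knockdowns, against 529 in the whole worm control. The 5 members with the highest whole worm control were comp51_c1_seq1 (4795 cRPKM), comp208_c0_seq1 (2166), comp69_c0_seq1 (2143.4), comp61_c0_seq1 (2143.0) and comp345_c0_seq1 (1795). Members were also shorter, with a median of 1031 mappable positions against 1335 in the others.

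edgeR without a replicate block called no member after knockdown of *bruli* or *mbnl*. In the fit over the fractions, no member of the 143 was called after *bruli* RNAi (0.00827% of all transcripts were) or after *mbnl* RNAi (0.0%). At an unadjusted p under 0.05 there were 14 and 12 members, beside 6.83% and 3.94% of all transcripts. Fits of 2 against 2 libraries in X1 and in Xins, and of the difference between these effects, called none of 130 members and 0.0% of all 12494 transcripts. At an unadjusted p under 0.05, *bruli* RNAi gave 16 members in X1, 6 in Xins and 16 for the difference. The shares of all transcripts were 7.12%, 0.632% and 2.75%. For *mbnl* RNAi there were 0, 16 and 9 members, beside 1.70%, 1.62% and 0.856% of all. The tests could miss large changes: *bruli* itself, down by −2.94 on the log2 scale after *bruli* RNAi in X1, had an adjusted p of 0.0722 (edgeR, Benjamini-Hochberg). limma on log2(cRPKM + 1) called no member in any of these comparisons, and DESeq2 called 1, comp207_c0_seq1, in X1 after *bruli* RNAi (0.496% of all transcripts were higher there). With the replicate number as a block, edgeR also called 1 in that comparison, comp12595_c0_seq1, and 0.576% of all transcripts as higher. The smallest unadjusted p over the fractions belonged to comp328_c0_seq1 after *bruli* RNAi (log2 1.83) and comp45827_c0_seq1 after *mbnl* RNAi (log2 1.41), with adjusted p of 0.58 and 0.985 (edgeR, Benjamini-Hochberg).

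In X2 each knockdown has 1 library and no replicate check, so values are given without a test. After *bruli* RNAi 19 members (9.55%) were past 0.7 higher on the scale log2(cRPKM + 1) than in the X2 control and 13 (6.53%) past 0.7 lower, beside 3.33% and 5.29% of all transcripts with at least 5 cRPKM in wild type X2. After *mbnl* RNAi 21 (10.6%) were past 0.7 higher and 26 (13.1%) lower, beside 2.74% and 13.1%. Medians of the members were 0.12 and −0.08, against 0.00 and −0.19 in the others.

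Among members with at least 50 counts, 3 stood highest after *bruli* RNAi. comp12365_c0_seq1 had 119 cRPKM after *bruli* RNAi against 19.2 in the X2 control, comp6148_c0_seq1 79.2 against 24.2, and comp8630_c0_seq1 216 against 69.6. They were also above the control after *mbnl* RNAi, with 57.0, 69.7 and 131 cRPKM against the same control library. comp11388_c0_seq1 (33.8 against 12.96 cRPKM) and comp17722_c0_seq1 (14.0 against 5.75) came next. Lowest after *bruli* RNAi were comp23203_c0_seq1 (1.06 against 4.71 cRPKM), comp208_c0_seq1 (1.20 against 5.04), comp9704_c0_seq1 (14.0 against 36.9), comp10914_c0_seq1 (8.60 against 18.9) and comp10877_c0_seq1 (14.9 against 28.4).

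After *mbnl* RNAi the highest were comp51_c1_seq1 (27.4 against 3.03 cRPKM), comp658_c0_seq1 (5.26 against 0.09), comp345_c0_seq1 (11.4 against 2.06) and comp497_c0_seq1 (6.34 against 1.03), all of the set low in the X2 control, and then comp12365_c0_seq1. Lowest were comp9375_c0_seq1 (5.37 against 27.98 cRPKM), comp1103_c0_seq1 (131 against 456), comp6782_c0_seq1 (7.28 against 23.0), comp5938_c0_seq1 (19.3 against 49.5) and comp8609_c0_seq1 (11.8 against 28.7). Of these, comp1103_c0_seq1 and comp8609_c0_seq1 were high in replicate 1 and lower in replicate 2 of Xins after *mbnl* RNAi (407 and 149 cRPKM, and 34.0 and 7.02), and likewise in the Xins controls (355 and 68.9, and 25.8 and 4.24). As a ratio, the gap between the Xins control replicates was larger than that between the *mbnl* RNAi and control X2 libraries for both. Wild type X2 had 130 and 7.11 cRPKM of these 2 transcripts.

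Whole worm knockdowns, again 1 library each, moved few members past 0.7. After *bruli* RNAi 12 were higher and 7 lower (6.68% and 0.592% of all transcripts with at least 5 cRPKM in wild type X2), after *celf* RNAi 5 and 3 (3.02% and 0.312%), and after *esrp* RNAi 4 and 3 (0.764% and 0.43%). *mbnl* RNAi gave 4 higher and 7 lower (0.269% and 1.33%), *nova* RNAi 8 and 13 (2.09% and 1.26%), and *ptbp* RNAi 5 and 2 (1.02% and 0.333%). *rbfox1* RNAi gave 2 and 4 (0.258% and 0.419%), and *rbfoxS* RNAi 7 and 5 (2.75% and 0.688%). Most of these members had few reads: with at least 50 counts in the higher library, 0 to 9 members per knockdown were past 0.7.

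Among members with 50 counts, comp8630_c0_seq1 and comp6148_c0_seq1 were the highest after *nova* RNAi, at 31.3 and 17.0 cRPKM, and after *rbfoxS* RNAi, at 27.8 and 13.3 cRPKM, against 6.61 and 6.03 in the whole worm control. In the 6 other knockdowns comp8630_c0_seq1 stayed between 4.84 and 9.52 cRPKM. These are the same transcripts that stood high in X2 after *bruli* RNAi, while in whole worms after *bruli* RNAi they had 9.52 and 8.18 cRPKM. comp496_c0_seq1, of the set low in the X2 control, was past 0.7 lower after *bruli* (27.2 cRPKM), *esrp* (23.5), *mbnl* (19.3), *nova* (23.2) and *ptbp* RNAi (28.2), all against the same control library at 47.4 cRPKM. Others named by the rule were comp16040_c0_seq1 (3.69 against 1.48 cRPKM) and comp11488_c0_seq1 (5.81 against 2.84) higher and comp11501_c0_seq1 (2.47 against 5.56) lower after *bruli* RNAi, comp4619_c0_seq1 (21.5 against 10.1) and comp11488_c0_seq1 (6.04 against 2.84) higher after *celf* RNAi, comp11953_c0_seq1 (0.89 against 2.76) lower after *mbnl* RNAi, and comp658_c0_seq1 (260 against 472) lower after *nova* RNAi.

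**Figure D5:**
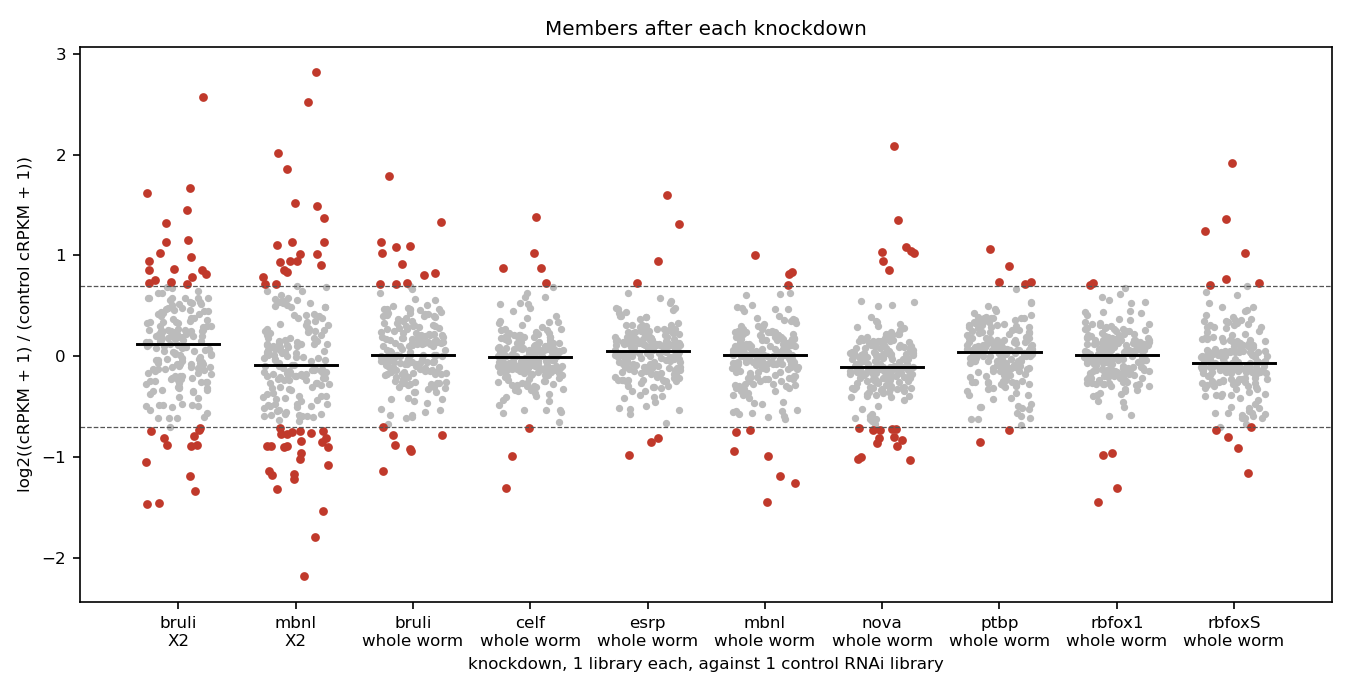
log2((cRPKM + 1)/(control cRPKM + 1)) of the 199 members after each knockdown, with 1 knockdown and 1 control library per column, a black line at the median and members past 0.7 in red. X2 columns spread wider than whole worm columns. Each set of columns shares its control library.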

How the data were processed

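Poly-A RNA of whole worms and sorted cells was sequenced. The authors deposited for each transcript a count and an RPKM corrected for mappable positions (cRPKM), made with Bowtie and vast-tools on a de novo transcriptome. Their versions: not given in the sources used here. Blank counts, all with a cRPKM of 0, were read as 0.

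Members and lists were chosen with earlier results of these data known. Wild type values chose the members, so they are described without a test. Counts were tested with edgeR 4.0.16 (TMM scaling, quasi-likelihood, two-sided, Benjamini-Hochberg over all transcripts with a mean log2(cRPKM + 1) over 1.5, call at adjusted p under 0.05) in R 4.3.3. Fraction and treatment entered 1 additive fit of 15 RNAi libraries, and 12 X1 and Xins libraries formed 6 groups of 2. Single libraries were compared on log2(cRPKM + 1) with a threshold of 0.7, which understates changes of low transcripts. Alternatives were DESeq2 1.42.0, limma 3.58.1, DESeq2 size factors in edgeR, no minimum level, libraries left out, a replicate block and other member rules. Tests were checked on simulated counts, drawn independently for each library with only planted differences. That check does not cover deviations shared by libraries of the same replicate number.

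Named were the annotated member, the first 10, those at the threshold, the 5 largest and 3 smallest differences of X2 from each neighbour, members not above both, and up to 5 per direction and knockdown in X2 (2 in whole worms) with at least 50 counts, besides the 5 highest in the whole worm control. A count of 0 allows up to 3 counts, or 0.0858 to 0.235 CPM, for counting error only. Replicates had 1.61% to 4.14% identical counts and none was a duplicate. No transcript sequence was analysed here.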

Additional observations from a re-analysis of the deposited data

How the results depend on the processing

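Of 248 alternative counts and shares of members, 221 stayed within 1.5 times the value reported, and of 349 alternative values of named members none reversed and 9 missed the threshold, all in the fit of control RNAi libraries alone, which has 5 libraries. That fit gave 58 members higher in X2 than in X1, 33 higher than in Xins and 51 different between X1 and Xins. Leaving out 1 library gave 87 to 113, 96 to 117 and 82 to 94 members for these comparisons and 0 for every knockdown test. On log2(cRPKM + 1), limma put the median of all transcripts at −0.44 for X2 over Xins, against −0.08 with edgeR, and called 90 members higher and 7 lower, with 2175 of all transcripts higher and 5132 lower, against 3746 and 4269. For X1 over Xins it called 27 members higher and 59 lower, against 47 and 43. After *bruli* RNAi in X1, DESeq2 called 1 member and the replicate block 1 (comp12595_c0_seq1, 0.576% of all transcripts higher), against 0. No label says that a replicate number pairs libraries. Gaps between numbers 1 and 2 correlated between groups at 0.034 (X1 control with Xins *mbnl* RNAi) to 0.751 across transcripts, all positive. Whether libraries of 1 number deviate together was not tested. The block changed no other call count by over 1.5 times. For whole worms, a pseudocount of 0.1 gave 38 (*bruli*), 31 (*celf*), 23 (*esrp*), 37 (*mbnl*), 21 (*ptbp*), 21 (*rbfox1*) and 34 (*rbfoxS*) members past 0.7. log2(CPM + 1) gave 2 (*celf*), 2 (*esrp*), 2 (*mbnl*), 8 (*nova*), 1 (*ptbp*), 0 (*rbfox1*) and 4 (*rbfoxS*). At least 50 counts left 8 (*bruli*), 2 (*celf*), 1 (*esrp*), 2 (*mbnl*), 9 (*nova*), 1 (*ptbp*), 0 (*rbfox1*) and 3 (*rbfoxS*). The cause of these shifts was not tested. The member rule with a pseudocount of 0.1, a minimum of 10 cRPKM or the first 100 left each share within 1.5 times.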

Other observations

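The cRPKM of Xins control replicate 1 read low, being scaled to a total 1.17 times its summed counts, against 1 in replicate 2. On this scale replicate 1 lay above replicate 2 for 75 of the 199 members (37.7%). The same held for 1967 of the 9099 other transcripts with at least 5 cRPKM in wild type X2 (21.6%). Among those others, 62 were at least 2 higher on the log2 scale in wild type X2 than in the X2 control and also at least 2 higher in the whole worm control than in wild type X2. At an X2 mean of under 1 cRPKM over the 3 RNAi libraries stood 19 members (9.55%) and 109 of the others (1.20%).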
